A study of Mus musculus with 11 samples.

Results

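Pericytes of the mouse cerebral cortex were compared between juvenile, adult and aged mice and mice with experimental autoimmune encephalomyelitis (EAE), a model of the demyelination of multiple sclerosis. Cells were taken from 11 single-cell RNA libraries of C57BL/6 mice, made with the 10x 3′ v2 chemistry from perfused cortex. Of 54646 barcodes, 50625 had 501 to 5999 detected genes and fewer than 25% mitochondrial UMIs (unique molecular identifiers, each a count of 1 captured RNA molecule), and these were kept. Pericytes were chosen by the UMI counts of 10 genes. A kept cell was called a pericyte when Vtn, Kcnj8, Atp13a5, Higd1b and Rgs5 together gave at least 4 UMIs, with at least 1 from the first 3 of these, while Acta2, Tagln and Myh11 together gave at most 3 and Cldn5 and Flt1 together at most 3. The rule found 1216 pericytes, 2.40% of the kept cells.

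The juvenile group held 4 libraries of untreated mice at postnatal day 10 (P10), for which the tissue of 6 mice had been pooled. The adult group held 3 libraries of untreated mice of 7 to 11 weeks, from 6 mice, and the aged group 2 libraries of untreated mice of 18 months, from 3 mice. The EAE group held 2 libraries from 3 mice of 7 to 11 weeks, taken at the peak of disease after immunization with a MOG peptide in complete Freund's adjuvant and pertussis toxin. The adult mice had received neither adjuvant nor toxin, so that effects of the disease and of these agents cannot be told apart. By the paper's methods the mice were female unless the study stated otherwise. Of 5 sex-linked genes (Xist and Y-linked genes), 2 were tested in juvenile pericytes. Their median log2 difference from adults was 2.84, and none had an adjusted p under 0.05 in edgeR. The sex of the mice of each library was not tested. The outer membranes of the brain had been dabbed off, the tissue was digested with papain and Liberase TM, and myelin and dead cells were removed before capture. The labels do not tie a library to a mouse or a pool, so the p-values measure the spread between libraries, which may be technical.

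Pericytes sit in the basement membrane on the outer face of capillary ECs (endothelial cells). They are recruited by PDGF-B from the endothelium, which acts on the receptor encoded by Pdgfrb, and they are kept in place by matrix and by Notch and TGF-β signals. In the brain they are needed for the blood–brain barrier, and they carry a characteristic ATP-sensitive potassium channel built from the products of Kcnj8 and Abcc9. Smooth muscle cells (SMCs) cover the larger vessels and differ from capillary pericytes by their high content of contractile proteins.

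The cells found by the rule were not uniform. Between 62 and 131 pericytes came from each library, apart from 281 in Adult 1. The sum of the 5 markers was exactly 4 UMIs in 87 cells, of which 41 were in Adult 1, and 203 cells lay just outside with a sum of 3, of which 107 were in Adult 1. The smooth muscle limit kept out 311 cells and the endothelial limit 490, of which 337 were in Adult 1. For the smooth muscle limit the numbers were 100, 98, 31 and 23 in the juvenile and 12, 9 and 8 in the adult libraries. They were 5 and 12 in the aged and 4 and 9 in the EAE libraries. All 5 markers were present in 619 pericytes, 50.9% of them. No pericyte barcode occurred in more than 1 library, and the doublet caller Scrublet marked 16 pericytes and 764 of all kept cells (1.51%).

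Many cells met the rule with a small share of marker RNA. In 261 cells the 5 markers gave under 1% of the cell's UMIs, and in each library the median of these cells lay between 0.05% and 0.46%, against 2.60% to 5.0% in the remaining cells. These 261 cells carried 70.4% and 78.8% of all pericyte UMIs in the EAE libraries, 63.1% in Adult 1, 25.6% and 30.3% in Adult 2 and Adult 3, 13.4% and 16.05% in the aged libraries and 37.1% to 44.9% in the juvenile ones. RNA of choroid plexus markers, which pericytes should lack, made up 17.7% to 19.6% of pericyte UMIs in EAE, 12% to 19.2% in adults, 5.12% to 7.24% in aged and 2.51% to 6.67% in juvenile mice, against 5.65% to 5.97%, 13.4% to 21.6%, 6.92% to 7.42% and 5.78% to 11.8% in the other cells of these groups in the same order. The label was therefore held only for the 955 cells with at least 1% marker RNA, called marker-rich pericytes below. Where all pericytes are named, and in the shares and counts of cells, all 1216 cells that met the rule are meant, whatever their marker share.

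A second departure from the label was found within the juvenile marker-rich cells. In 54 of these 235 cells, against 5 of the other 720, 7 fibroblast genes (Dcn, Lum, Col1a1, Col1a2, Pdgfra, Islr and Cemip) gave 0.3% or more of the UMIs. Their share in the juvenile libraries was 24.1%, 15.6%, 27.7% and 26.7%. These juvenile cells met the rule through Vtn, at 14203 to 18558 UMIs per 1e6 UMIs of the summed cells (CPM). Of the other markers, Kcnj8 was at 0, 76.6, 0 and 0 CPM in them and Cspg4 at 0 in all 4 libraries, while Pdgfrb lay between 193 and 330 CPM and Abcc9 between 0 and 38.3 CPM. They also held Col1a1 at 3542 to 5048 CPM. They are called fibroblast-rich cells where they are given on their own, and they are part of the counts of all pericytes. The remaining 865 cells, with fibroblast genes and leukocyte genes each under 0.3% of the UMIs, are called core pericytes. They numbered 60, 54, 33 and 33 in the juvenile, 193, 79 and 65 in the adult, 120 and 98 in the aged and 61 and 69 in the EAE libraries. Their UMIs summed to 239783, 235518, 128135 and 122583 in juvenile and 365629, 128910 and 100607 in adult libraries. The sums were 154668 and 132009 in aged and 74281 and 86175 in EAE libraries. In core pericytes choroid plexus RNA made up 0.528% to 1.01% in juvenile, 2.55% to 6.35% in adult, 0.632% to 1.74% in aged and 1.34% to 1.35% in EAE libraries, and leukocyte RNA was at most 0.121%. Both limits were chosen after the data were seen, and gene levels are compared in all pericytes and in the core.

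**Figure D1:**
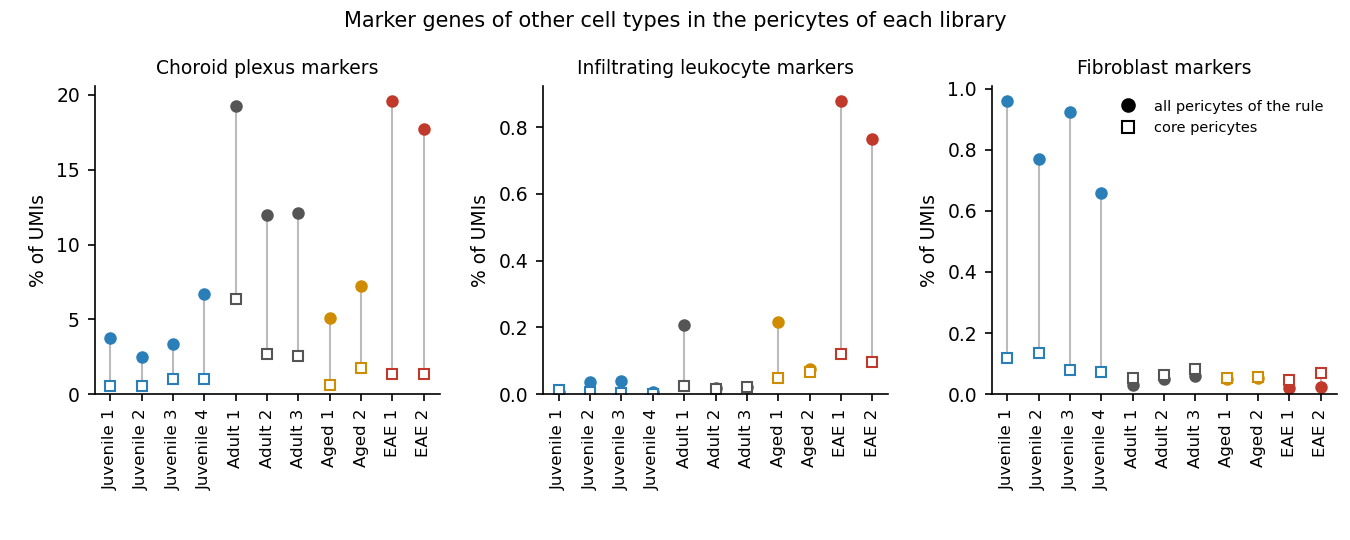
RNA of choroid plexus, leukocyte and fibroblast markers as a percentage of pericyte UMIs, 1 point per library, for all pericytes (filled) and core pericytes (open squares). Choroid plexus RNA reached 19.6% of the UMIs of all pericytes in EAE and 1.35% in core pericytes, and fibroblast RNA in juvenile libraries was 0.66% to 0.960% in all and 0.0742% to 0.134% in core pericytes.

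Depth and library identity also differed between groups. A juvenile pericyte held a median of 4128.5 to 4677 UMIs, an adult one 1452.5 to 2136, and an aged or EAE one 1272 to 1308. Total pericyte UMIs ran from 144295 to 1001630 per library. Juvenile 1 and 2, Juvenile 3 and 4, and Adult 2 and 3 were close to each other (in other cells, chi-square per degree of freedom 2.09, 2.87 and 2.27), whereas the juvenile pairs differed from each other by 61.8 to 67.7 and Adult 1 differed from Adult 2 and 3 by 105 and 104, the most within any group. Aged 1 and 2 differed by 3.99 and EAE 1 and 2 by 5.09, nearer to the close pairs than to the larger gaps. Each pair differed by more than the sampling of UMIs gives, which does not show separate pools. All libraries were kept apart in the main fit. Counts with the juvenile pairs and Adult 2 and 3 each taken as 1 sample are given beside the results. In those counts EAE 1 and EAE 2 stay separate. The comparisons with ECs were not run in that way, so their p-values count near-identical libraries separately.

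The marker genes are given as a description only, since they chose the cells. Vtn, which encodes the matrix protein vitronectin, was the most abundant in adult core pericytes at 23682, 25405 and 28497 CPM. In juvenile core pericytes it was at 7628, 7554, 11589 and 11829 CPM, below every other group, and the aged libraries were highest at 33485 and 32717 CPM. Rgs5, a regulator of G protein signalling, had the opposite order, with 16079 to 16970.0 CPM in juvenile libraries and 5612, 8417 and 7902 CPM in adult ones. Higd1b was likewise at 3207 to 5174 CPM in juvenile and 1657 to 2396 CPM in adult libraries. Atp13a5, a P-type ATPase, was at 777 to 1615 CPM in juvenile, 2316 to 3681 in adult and 1858 and 2286 CPM in EAE libraries. Kcnj8, the pore of the potassium channel, was at 1698 to 2770.5 CPM in juvenile and 1846 to 1928 CPM in adult core pericytes, and at 3231 and 3330.4 CPM in EAE.

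**Figure D2:**
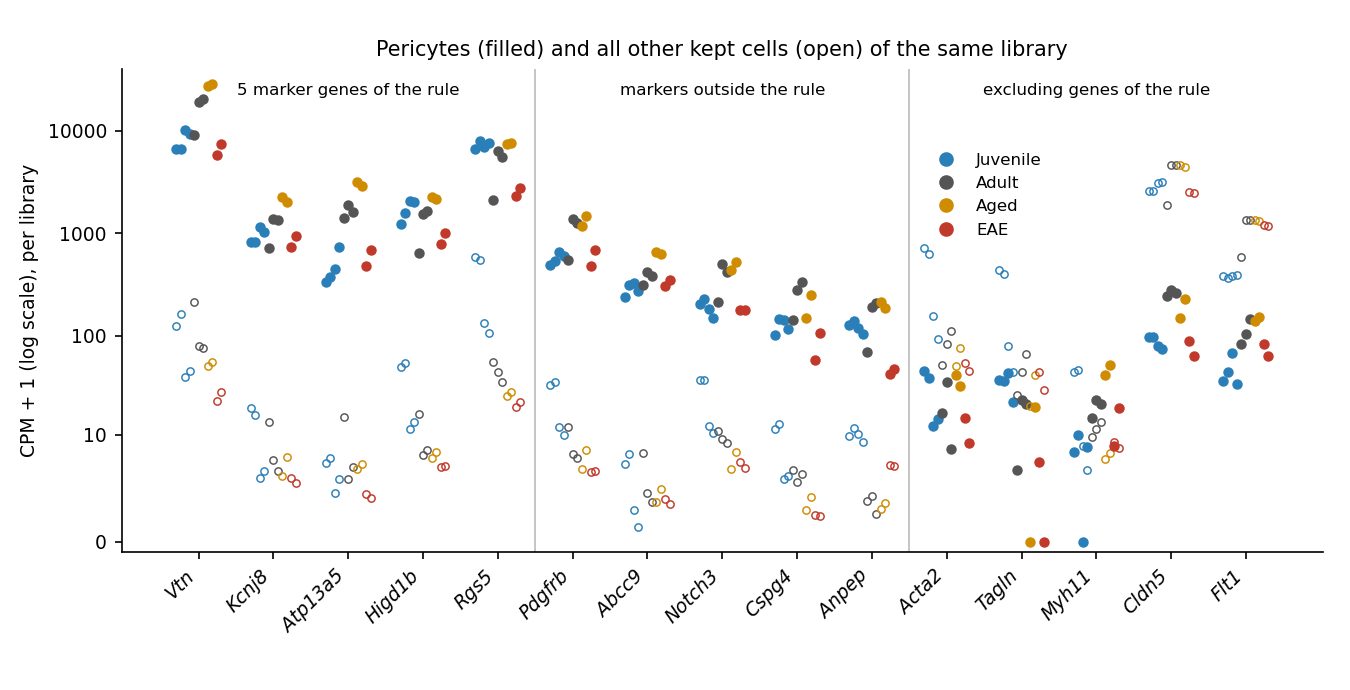
CPM plus 1, on a log axis, of the 5 marker genes of the rule, 5 pericyte genes outside it and the 5 genes it limits, for all pericytes (filled) and all other kept cells (open), 1 point per library. Each of the 5 markers and Pdgfrb, Abcc9 and Notch3 lay higher in pericytes than in other cells in all 11 libraries.

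Within each library, pericytes were set against all other kept cells. This contrast is the one the rule used, so its values and calls are set in part by the choice of cells, are given as a description, and nothing is read from them. Abcc9, the regulatory subunit of the potassium channel, had the largest difference, with 240.55 to 656.55 CPM in pericytes against 0.405 to 6.28 CPM in other cells (log2 difference 7.32). It was followed by Slc6a13, a GABA and taurine transporter (7.17), Ndufa4l2 (6.81), Art3 (6.58), Cox4i2 (6.45), the nucleotide-sugar receptor gene P2ry14 (6.39), the aminopeptidase Enpep (6.37), Pdgfrb (6.36), Rgs4 (6.32) and the cytokine Il34 (6.16), all higher in 11 of 11 libraries. Of 13316 genes, 33.2% had an adjusted p under 0.05 in edgeR (11.5% higher and 21.6% lower in pericytes), and by the same measure 19 of 20 pericyte genes outside the rule were higher, with none lower. Of the matrix genes 37 of 57 were higher and 4 lower, of the ion channel and signalling genes 28 of 45 and 8, whereas 16 of 22 MHC class I genes and 36 of 48 interferon-response genes were lower.

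Against SMCs, compared in the 10 libraries with enough of them, the largest differences on the pericyte side were those of Cthrc1 (log2 difference 5.32), Abcc9 (4.69), Ptn (4.56), Igf2 (4.25) and the amino acid transporter gene Slc6a20a (4.05). Of 2870 genes 35.8% had an adjusted p under 0.05 in edgeR (17.8% higher and 18.0% lower), again as a description. The contractile genes were lower in pericytes for 22 of 29 and higher for none, and of the transporter genes 9 of 18 were higher and 3 lower. The contractile direction was set by the rules for both cell types, which limit Acta2, Tagln and Myh11 in pericytes and require them in SMCs. The cells outside the core were included here. Igf2 was at 1331 to 2244 CPM in the fibroblast-rich juvenile cells, and for Ptgds the difference was 3.74 in all and 1.54 in marker-rich pericytes.

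No difference from adults in the share of pericytes among kept cells passed the exact permutation test. The share was 4.29%, 3.64%, 1.54% and 1.51% in the juvenile libraries, 8.83%, 2.33% and 1.85% in the adult, 2.57% and 2.2% in the aged and 1.24% and 1.27% in the EAE libraries. Juvenile 1 and 2 were above Juvenile 3 and 4, and Adult 1 stood above all other libraries. Both EAE libraries lay below the other 9, as they did among marker-rich pericytes, at 0.865% and 1.03% against 1.095% to 6.12%. With Cldn5 and Flt1 at 0 this order did not hold, at 69 of 8096 cells in EAE 2, 31 of 3890 in Adult 3 and 29 of 4168 in Juvenile 3. Nor did it with Rgs5 left out and at least 2 UMIs of the other markers, at 168 of 8096 in EAE 2 and 79 of 4109 in Juvenile 4. The difference from adults was −1.59 percentage points in juvenile (two-sided exact permutation test, p = 0.571, smallest possible 0.0286), −1.95 in aged (p = 0.9, smallest possible 0.1) and −3.08 in EAE mice (p = 0.5, smallest possible 0.1). Without Adult 1 the differences were 0.657, 0.291 and −0.834. As a share of pericytes and ECs together, pericytes made up 16.6%, 14.6%, 5.44% and 5.33% in juvenile, 20.4%, 3.61% and 2.79% in adult, 4.02% and 3.26% in aged and 2.54% and 2.62% in EAE libraries, the EAE values again being below the other 9. With Cldn5 and Flt1 at 0 this order did not hold either, at 69 pericytes to 3824 ECs in EAE 2 and 31 to 2511 in Adult 3. The difference from adults was 1.55 percentage points in juvenile, −5.31 in aged and −6.37 in EAE mice (p = 0.83, 0.9 and 0.5, exact permutation test). Without Adult 1 it was 7.30, 0.439 and −0.62, and in juvenile mice it was −0.482 without Juvenile 1, −1.12 without Adult 2 and −1.53 without Adult 3. These are shares of the captured cells and do not measure the pericyte coverage of vessels.

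**Figure D3:**
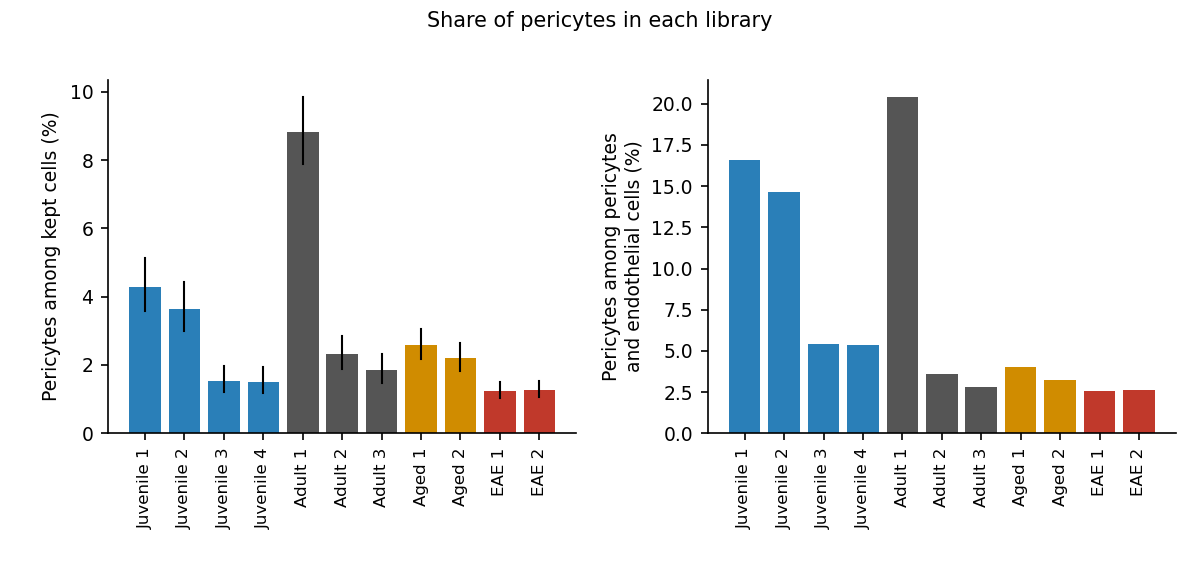
Pericytes as a percentage of kept cells with 95% Wilson intervals (counting error only), and as a percentage of pericytes and ECs, 1 bar per library. Adult 1 reached 8.83% of kept cells while the other 10 libraries lay between 1.24% and 4.29%.

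Few cells held several UMIs of cell cycle genes at a matched depth. After each cell was thinned to 1500 UMIs, at least 2 UMIs of the cell cycle genes were found in 2 of 113, 4 of 92, 0 of 64 and 1 of 59 juvenile pericytes, in 0 of 202, 0 of 46 and 0 of 31 adult ones, in none of 33 and 32 aged ones and in 0 of 43 and 2 of 40 EAE ones. Cells under 1500 UMIs were left out, 0 to 3 of each juvenile library, 79, 42 and 41 of the adult, 98 and 72 of the aged and 60 and 63 of the EAE libraries, and 13 and 20 of the remaining EAE cells were marker-rich, 1 of them cycling. The zeros in the adult libraries allow shares of up to 1.49%, 6.52% and 9.68%. The mean share was higher in juvenile than in adult libraries by 1.95 percentage points (exact permutation test, p = 0.143, two-sided). It was 1.15 without Juvenile 2. It was 3.48 with Rgs5 left out of the rule and the needed sum of the other markers lowered to 2 UMIs (exact permutation test, p = 0.0286, the smallest possible). That test counts near-identical libraries separately, and with them averaged the smallest possible p of the exact permutation test is 0.333. With at least 1 such UMI the share was 12.6% against 5.83% (p = 0.0857, exact permutation test). Before thinning, at least 2 UMIs were found in 11 of 115, 13 of 93, 5 of 64 and 1 of 62 juvenile cells, a mean of 8.24% against 0.356% in adults (p = 0.0571, exact permutation test). Of marker-rich juvenile cells, fibroblast-rich ones included, 2 of 77, 3 of 63, 0 of 47 and 1 of 43 were counted after thinning.

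More genes passed between juvenile and adult pericytes than in the other comparisons with adults, and the juvenile group also had the most libraries and the most UMIs per cell. Across all pericytes 1643 of 6722 genes (24.4%) passed an adjusted p of 0.05 (edgeR quasi-likelihood test with Benjamini-Hochberg adjustment), 818 of them higher (12.2%) and 825 lower (12.3%). In core pericytes 1244 of 3484 (35.7%) passed, 600 higher (17.2%) and 644 lower (18.5%). The 3 cell sets, all, marker-rich and core pericytes, are nested, so passing in each of them is not repeated support. In all 3 cell sets 709 genes passed in the same direction, and 472 of these, 248 higher and 224 lower, also passed in each fit of all pericytes without 1 juvenile or adult library in which they were tested. With near-identical libraries taken as 1 sample, 1070 genes passed in core pericytes. The change from adult was also compared with that of ECs of the same libraries, and it differed for 1253 of 14457 genes in all (8.67%) and 1122 of 14098 in core pericytes (7.96%) of juvenile mice, for 0.892% and 0.312% in aged and for 8.4% and 1.5% in EAE mice. Genes are named below from the 472 unless stated otherwise. Genes that fill a core count of a list were called in core pericytes and need not be among the 472. Folds are given as log2 differences ± SE in core pericytes. The p-values of single genes and of differences from ECs count near-identical libraries separately unless stated otherwise.

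Several cytoskeletal and matrix genes were higher at P10, while the share of matrix genes that were lower was near that of all core genes. Of 23 contractile and cytoskeletal genes tested in core pericytes, 10 were higher and 2 lower (median log2 difference 0.35, against 0.0046 over all genes). Of all core genes 17.2% were higher and 18.5% lower. Smooth muscle markers, which share members with this list, were higher for 3 of 5 and lower for 0 (median 0.38). They gave 0.539% to 0.604% of core UMIs in juvenile and 0.284% to 0.506% in adult libraries. The limit on Acta2, Tagln and Myh11 is a count of UMIs, and juvenile pericytes held more UMIs each. It kept out 23 to 100 cells of each juvenile and 8 to 12 of each adult library. Its part in these differences was not tested. Tpm4, which encodes a tropomyosin of actin stress fibres, was at 1639, 1707, 1475 and 1729 CPM in juvenile and 274, 256 and 219 CPM in adult libraries. The groups did not overlap, and the difference was 2.52 ± 0.17 (adjusted p = 1.73e-14). Vim, the intermediate filament vimentin, was at 542, 594, 569.7 and 702 against 79.3, 109 and 129 CPM (2.44 ± 0.21, adjusted p = 8.72e-12). Cnn2 (1.49 ± 0.18), Myl12a (1.26 ± 0.15) and Tpm1 (1.02 ± 0.19) were also higher in all 4 juvenile libraries. Myh9, the heavy chain of a non-muscle myosin (−0.95 ± 0.20), and Smtn, the smoothelin gene (−1.02), were the 2 lower ones. ECs of the same libraries had a smaller rise in Tpm4 and Vim, the pericyte change exceeding theirs by 1.63 and 1.67 on the log2 scale in core pericytes (adjusted p = 9.6e-22 and 7.1e-13).

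Of 37 matrix genes tested in core pericytes, 15 were higher in juveniles, against 17.2% of all core genes (median 0.09). A further 8 were lower, a share near the 18.5% of all core genes that were lower. Matrix RNA made up 2.11% to 2.26% of core UMIs in juvenile and 1.41% to 1.61% in adult libraries. Across all pericytes 34 of 51 were higher and 5 lower (median 1.34), and this count included the fibroblast-rich cells. Col4a1, a main chain of type IV collagen in the basement membrane, was at 2127, 2255, 1545 and 1623 CPM in juvenile and 429, 496 and 537 CPM in adult core pericytes (1.83 ± 0.17, adjusted p = 4.11e-11). Its partner chain Col4a2 was also higher (1.85 ± 0.18). Another type IV chain moved the other way, Col4a3 being at 12.5, 12.7, 0 and 0 CPM in juvenile and 172, 132 and 109 CPM in adult core pericytes (−4.20 ± 0.44, adjusted p = 7.39e-10). In ECs Col4a3 had a log2 difference of 0.69. Lamb2, the β2 laminin chain, was lower in juveniles at 100.1 to 179.5 CPM against 289.9, 349 and 328 (−1.41 ± 0.21), and so was Itga7, an integrin that binds laminin (−1.37 ± 0.26).

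Other secreted matrix genes were higher in the juvenile libraries with more spread between them. Col3a1, a fibrillar collagen, was at 717, 841, 359 and 302 CPM against 60.2, 116 and 159 in adults (2.43 ± 0.50, adjusted p = 0.00652). The periostin gene Postn was at 225, 191, 93.7 and 89.7 against 19.1, 23.3 and 0 CPM (3.05 ± 0.48), and Col18a1, whose product is a collagen of vascular basement membranes, at 234, 318, 93.7 and 32.6 against 8.21, 7.76 and 19.9 CPM (3.95 ± 0.94, adjusted p = 0.0124). Juvenile 1 and 2 were above Juvenile 3 and 4 for each of these, and no juvenile library overlapped the adults. In the fibroblast-rich juvenile cells Col3a1 was at 2009.8 to 3442 CPM and Col18a1 at 288 to 656 CPM, in each library above the core of the same library. Serpine2 (2.04 ± 0.20) and Mfap2 (2.72 ± 0.32) were also higher. Prelp, a small proteoglycan (−3.45 ± 0.33, against −0.61 in all and −1.31 in marker-rich pericytes), and Ecm2 (−1.29 ± 0.19) were lower.

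Further genes named by the size of their change were higher at P10. Fabp5, a fatty acid-binding protein, was at 413, 471, 460.4 and 604 CPM in juvenile and 13.7, 7.76 and 19.9 CPM in adult core pericytes (4.91 ± 0.33, adjusted p = 1.73e-14), while ECs had a log2 difference of 0.01. Its relative Fabp7 was also higher (2.97 ± 0.45), as were Nrep (3.71 ± 0.30) and Ppp1r14b (4.66 ± 0.89). Tmsb10, which encodes an actin-binding thymosin, was at 3866, 3919, 2334 and 2423 against 388, 396 and 477 CPM (2.77 ± 0.20), and ECs rose too, so that the excess in core pericytes was 0.95. Lgals1, the lectin galectin-1, was at 1885, 1609, 952 and 1493 against 191, 365 and 447 CPM (2.13 ± 0.33, adjusted p = 0.000737), and in ECs its log2 difference was −2.37.

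Growth factor and imprinted genes are given by count. Of 11 growth factor genes tested in core pericytes, Mdk and Igfbp4 were higher and 4 were lower (Pdgfrb, Igfbp2, Fgfr1 and Ptn), against 8 and 3 of 19 in all pericytes. Of 9 imprinted genes Meg3 was higher and Dcn lower, against 9 and 0 of 15 in all pericytes, and the value of Dcn is set in part by the fibroblast limit that defines the core. Of all core genes 17.2% were higher and 18.5% lower, so that nothing is read from these counts about either list. Mdk, which encodes the growth factor midkine, was at 142, 178, 70.2 and 65.3 against 24.6, 31.0 and 39.8 CPM (1.90 ± 0.39, adjusted p = 0.000191) and Igfbp4, a binding protein of insulin-like growth factors, at 246, 229, 273 and 147 against 16.4, 23.3 and 49.7 CPM (3.03 ± 0.36). Meg3, an imprinted non-coding RNA, was at 2335, 2607, 3332 and 1860.0 CPM against 826, 1164 and 934 (1.24 ± 0.16), well above the 240.0 to 285 CPM of other juvenile cells. Tbx18, a transcription factor of mural cells, was at 242, 259, 85.8 and 196 CPM against 84.8, 116 and 159, and passed (0.75 ± 0.29, adjusted p = 0.0407) although the libraries overlapped.

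Some differences of all pericytes were of another size, did not pass or turned around in core pericytes. In all pericytes the log2 differences of Mfap2 and Col3a1 were 4.67 and 4.53, above those of the core, and those of Cp and Slc6a20a were −0.99 and −1.34, nearer to 0. With near-identical libraries taken as 1 sample, Prelp, Pdgfrb, Cspg4 and Cebpd did not pass in all pericytes (adjusted p = 0.10, 0.103, 0.0935 and 0.0527) and passed in marker-rich ones (0.00041, 7.6e-05, 0.0016 and 0.0097). Igf2 was higher in all juvenile pericytes (2.22 ± 0.32, adjusted p = 0.000297), whereas in core pericytes it was at 209, 314, 234 and 383 CPM against 271, 139.6 and 179 (0.24 ± 0.30, adjusted p = 0.58). Cxcl12, a chemokine made by vascular and stromal cells, was higher in all pericytes by 2.42 and lower in core pericytes, at 75.1, 119, 109 and 106 CPM against 416, 504 and 517 (−2.36 ± 0.20, adjusted p = 8.1e-12). In the fibroblast-rich cells it was at 4609 to 5645 CPM. Igfbp2 likewise changed from 1.72 to −1.66 ± 0.36, with 5949 to 7907 CPM in the fibroblast-rich cells. Of the 8 genes with the largest rise across all pericytes, Emp1, Wnt4, Col9a2, Ranbp3l, Mfap4, Clec3b, Fgfbp1 and Sidt1, none exceeded 21.2 CPM in any juvenile core sum, while in the fibroblast-rich cells they were at 38.3 to 1349.6 CPM. Col1a1 and Serpinf1 were at 0 to 25 CPM in the juvenile core, which the fibroblast limit keeps low for Col1a1.

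Several pericyte genes were lower at P10. Of 20 pericyte genes outside the rule tested in core pericytes, 9 were lower and 3 higher (median −0.23), the higher ones being Cd248, Tbx18 and Mcam at 0.54, 0.75 and 0.70, and together they gave 1.07% to 1.35% of core UMIs in juvenile and 1.49% to 1.65% in adult libraries. Pdgfrb was at 997, 955, 1327 and 1019.7 CPM in juvenile against 1455, 1846 and 1789 in adult core pericytes (−0.81 ± 0.14, adjusted p = 1.65e-05). Notch3, the Notch receptor of mural cells, was at 496, 471, 437 and 334 against 531, 659 and 606 CPM (−0.58 ± 0.16, adjusted p = 0.00551), and of the 8 Notch genes tested Notch2 (−0.92) and Maml2 (−0.86), a coactivator of the pathway, were lower too and none was higher. Cspg4, which encodes the NG2 proteoglycan, was lower too (−0.61 ± 0.18, adjusted p = 0.00949). Abcc9, at 605, 654, 773 and 579 against 809.6, 566 and 557 CPM, had a difference of −0.19 ± 0.16 (adjusted p = 0.39), whereas it was lower in all pericytes (−0.51, adjusted p = 0.0239). Anpep, the CD13 aminopeptidase, had a difference of −0.23 ± 0.21 (adjusted p = 0.511). Of the 9 TGF-β and BMP genes 2 were lower, the ligand gene Bmp4 (−3.09) and the BMP antagonist gene Nbl1 (−0.96), and none was higher, a share near the 18.5% of all core genes that were lower.

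Many transporter genes and several ion channel and signalling genes were lower at P10. Of 21 transporter and enzyme genes, 14 were lower and 1, Slc38a2, higher at 1.23 (median −1.03), and the list gave 0.546% to 0.845% of core UMIs in juvenile and 1.46% to 1.53% in adult libraries. Slc6a20a, a transporter of proline and related imino acids, was at 329, 378, 569.7 and 702 CPM against 2328, 1901 and 1968 (−2.28 ± 0.20, adjusted p = 2.08e-08). Ggt1, the γ-glutamyl transferase of glutathione breakdown, was at 29.2, 21.2, 62.4 and 57.1 against 432, 318 and 497 CPM (−3.59 ± 0.26). The amino acid transporter gene Slc38a11 (−1.79 ± 0.19), the manganese transporter gene Slc30a10 (−1.12 ± 0.21) and Slc22a17 (−2.90 ± 0.41) were lower as well. Slc6a20a and Ggt1 also belong to the pericyte genes above. Choroid plexus RNA, which holds many transporters, was higher in adult than in juvenile core pericytes (2.55% to 6.35% against 0.528% to 1.01%), and its part in these differences was not tested. Other adult cells had 25.8 to 65.6 CPM of Slc6a20a and 2.27 to 5.57 CPM of Ggt1.

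Of 22 ion channel and signalling genes, 12 were lower, against 18.5% of all core genes, and 4 were higher, a share near the 17.2% of all core genes (median −0.71), the higher ones being the endothelin receptor gene Ednra (0.57), Gucy1a3, a subunit of the nitric oxide receptor (0.84), Pde5a and the thrombin receptor gene F2r (0.68). P2ry14 was at 517, 335, 679 and 693 CPM in juvenile against 2081, 1729.9 and 1859 in adult core pericytes (−1.96 ± 0.18, adjusted p = 8.96e-10). Among the called genes were 4 phosphodiesterase genes, whose products break down cyclic nucleotides. Pde8b was at 238, 323, 343 and 391.6 against 976, 846 and 626 CPM (−1.55 ± 0.19), Pde4d (−1.50 ± 0.20) and Pde4c (−3.59 ± 0.49) were lower too, and Pde5a, which acts on cyclic GMP, was higher at 132 to 220.3 against 29.8 to 65.6 CPM (1.42 ± 0.28). Itpr1, a calcium release channel, was lower (−2.36 ± 0.26), as was the chloride channel gene Ano1 (−1.02 ± 0.20). For Pde4d the change in ECs was a log2 difference of 1.5, and the difference between the cell types was −2.89 in core pericytes (adjusted p = 9.6e-22).

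**Figure D4:**
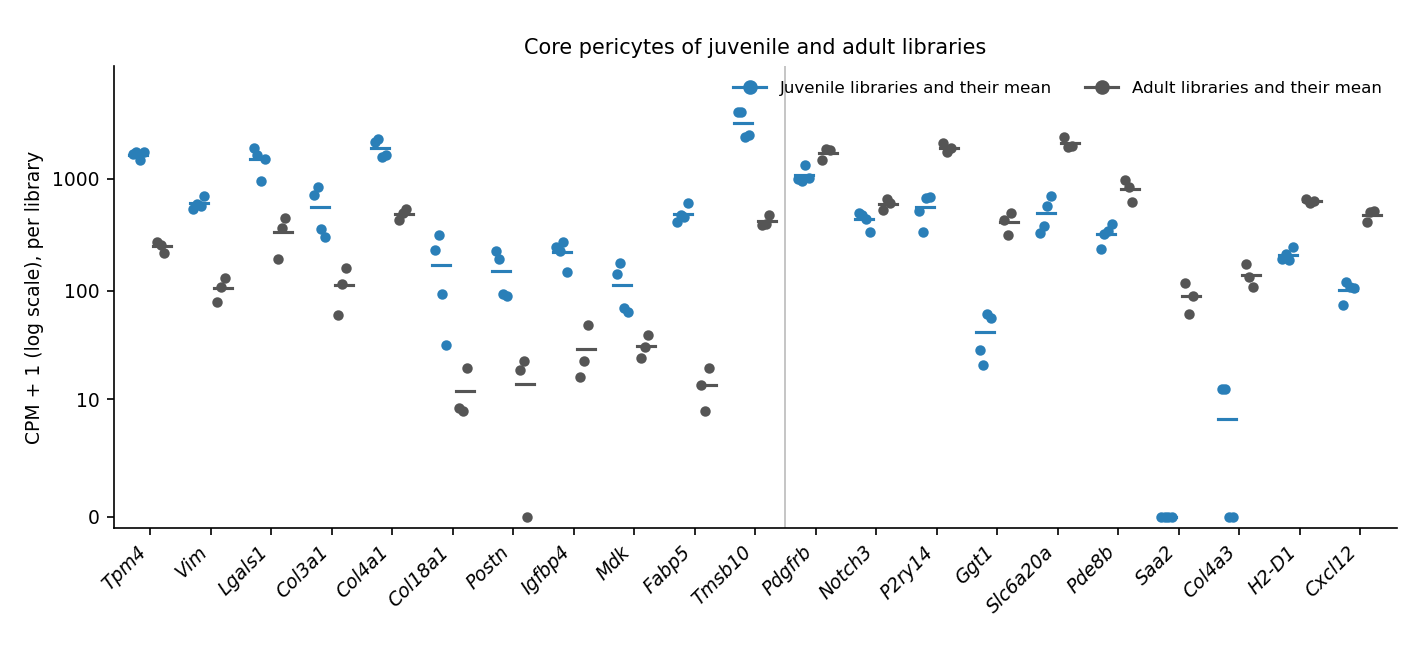
CPM plus 1, on a log axis, in core pericytes of the 4 juvenile and 3 adult libraries, with dots for libraries and a bar for the group mean, for genes higher at P10 (left) and lower at P10 (right). Tpm4 lay at 1475 to 1729 CPM in juvenile and 219 to 274 CPM in adult libraries, and P2ry14 at 335 to 693 and 1729.9 to 2081 CPM.

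Some antigen presentation and acute-phase genes were also lower at P10. Of 14 MHC class I genes 6 were lower and 1, Psme1, higher at 0.77 (median −0.35). H2-D1 was at 192, 212, 187 and 245 CPM against 654, 605 and 636 (−1.76 ± 0.17, adjusted p = 6.76e-11), H2-K1 at 16.3 to 41.7 against 139 to 222 CPM (−2.79 ± 0.29), and B2m, the light chain shared by these molecules, at 633 to 738 against 939 to 1004 CPM (−0.63 ± 0.14). H2-K1 and H2-D1 are close paralogs that can share reads, so that their split is uncertain. Endothelial markers outside the rule were lower for 7 of 7 tested in juvenile core pericytes (median −2.11). They gave 0.0822% to 0.0999% of core UMIs in juvenile and 0.197% to 0.222% in adult libraries. The limit on Cldn5 and Flt1 is a count of UMIs, and juvenile pericytes held more UMIs each. The part of endothelial RNA in the genes lower at P10 was not tested. The serum amyloid gene Saa2 had no UMI in juvenile core pericytes and 62.1 to 118 CPM in adult ones, at least 24.4-fold lower against a floor of 3 counts over the group, and Saa1 was lower as well (−3.37 ± 0.40). Of 24 immediate early and heat shock genes, which respond to dissociation, 11 were lower and 1, Cryab, higher at 0.99 (median −1.19), the lower ones including Btg2 (−2.04 ± 0.54) and Hspb1 (−1.91 ± 0.22). Of 22 cytokine, adhesion and acute-phase genes 8 were lower and 1, Lgals1, higher (median −0.51). The ceruloplasmin gene Cp was at 95.9, 127, 109 and 97.9 against 454, 334 and 576 CPM (−2.20 ± 0.20), and Cebpd, a transcription factor of the acute phase, was at 48.9 to 93.4 against 205, 838 and 348 CPM (−2.76 ± 0.55), with a wide spread between the adult libraries, and in all pericytes it did not pass with the replicate block (adjusted p = 0.0729). Of 20 respiratory chain and hypoxia genes in core pericytes 7 were higher and 2 lower (median 0.20), against 17.2% and 18.5% of all core genes, while in all pericytes 2 of 24 were higher and 8 lower (median −0.24).

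Few genes passed between aged and adult pericytes. Across all pericytes 66 of 6722 genes (0.982%) passed, 16 higher (0.238%) and 50 lower (0.744%), while 12 of 3484 (0.344%) passed in core pericytes, 2 higher (0.0574%) and 10 lower (0.287%), and 1 with near-identical libraries taken as 1 sample. Only 2 genes passed in all 3 cell sets, and neither passed in every fit of all pericytes that left out 1 aged or adult library. Of all pericytes, 27 genes passed without Adult 1, 152 without Adult 2 and none without Aged 1 or Aged 2, where 746 and 787 had an unadjusted p under 0.05. These were Rrad and Gm4149. Rrad, which encodes a small GTPase that restrains calcium channels, was at 466 and 447 CPM in aged against 186, 140 and 209 CPM in adult core pericytes (1.23, adjusted p = 0.0157). Gm4149 was at 38.8 and 22.7 against 145, 93.1 and 109 CPM (−2.08). ECs had a log2 difference of −0.13 in Rrad, and the difference between the cell types was 1.95 in all pericytes (adjusted p = 0.00018) and 1.47 in core pericytes (adjusted p = 0.053).

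The other genes named by size in all aged pericytes were not called in the core. They were Slc16a11, Tmem178, Saa2, Tmem203, 9130020K20Rik, Gm14964 and Rhoj among the higher ones, and Thumpd3, Msx1, Gm15536, Gm11744, Pcp4, Aqp1, Krt18 and Gm20501 among the lower ones. Aqp1, a water channel, and Krt18 are known from the choroid plexus epithelium, whose RNA was lower in all aged pericytes than in adult ones. By list, in all pericytes Zic1 was the 1 called pericyte gene outside the rule, and none of the MHC class I, interferon, Notch, TGF-β, ion channel or transporter genes passed. Of 51 matrix genes none passed in all pericytes (median −0.24), and of 37 in core pericytes 3 were lower and none higher (median −0.45), namely the basement membrane chain gene Col4a2 (−1.17, adjusted p = 0.0298), Sparc, whose product binds collagen (−0.80, adjusted p = 0.0196), and Col1a2 (−1.85, adjusted p = 0.0157), which is 1 of the genes of the fibroblast limit. The rest of the 12 core genes were S100a8 (3.18) and Rrad among the higher ones and Malat1 (−0.61), Slc22a17 (−2.14), Smpdl3a (−1.72), Dync1i2 (−0.94), Gm4149, Gm13889 and Gm14303 among the lower ones. S100a8 is 1 of the genes of the leukocyte limit. Leukocyte RNA made up 0.804% to 0.83% of the UMIs of other aged cells and 0.169% to 0.239% of other adult cells. Its part in the S100a8 value was not tested. Pdgfrb was at 1442 and 1704 CPM in aged core pericytes, Abcc9 at 769 and 735 CPM and Notch3 at 524 and 591 CPM, within or near the adult range. With 2 aged libraries these data do not show that the groups were alike.

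In EAE several genes of class I antigen presentation and of the interferon response rose in pericytes. Interferons act through STAT and IRF factors on promoters, and IRF-bound elements share the letters GAAANNGAAA. MHC class I molecules, made of a heavy chain and B2m, present peptides cut by the proteasome, in which Psmb8 and Psmb9 replace the constitutive subunits. In all 3 cell sets 13 genes of these lists were called higher. They were H2-K1, H2-D1, H2-T23, B2m, Psmb8, Psmb9, Ifit3, Irf7, Ifitm3, Gbp2, Irgm1, Cxcl9 and Iigp1. A promoter was matched for 12 of them in RefSeq (GRCm38.p6), and GAAANNGAAA on either strand was found within 250 bases before the start of 5, namely H2-T23, B2m, Ifit3, Gbp2 and Irgm1, against 936 of 27025 genes (3.46%). The STAT motif TTCNNNGAA was found in 1 of 12, Psmb8, against 8.13% of genes. The windows of 4 of these are shown because their genes carry the EAE result, with the GAAANNGAAA match in capitals (as TTTCNNTTTC where it lies on the other strand), over 120 bases that end 41 bases before the start. B2m is at chr2:122147527-122147646 (plus strand), Ifit3 at chr19:34583369-34583488 (plus), Gbp2 at chr3:142620503-142620622 (plus) and H2-T23 at chr17:36032742-36032861 (minus). A match describes the letters and does not show that a factor bound there. The genes came from lists of interferon-response and class I genes, where such letters are likely whatever the EAE values. The share among list members that were not called is not given, so nothing is read from these shares about EAE.
B2m: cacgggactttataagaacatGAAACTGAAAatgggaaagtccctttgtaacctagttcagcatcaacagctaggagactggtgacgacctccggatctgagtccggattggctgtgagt
Ifit3: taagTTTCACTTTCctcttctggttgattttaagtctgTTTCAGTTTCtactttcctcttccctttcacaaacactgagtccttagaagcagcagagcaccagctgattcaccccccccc
Gbp2: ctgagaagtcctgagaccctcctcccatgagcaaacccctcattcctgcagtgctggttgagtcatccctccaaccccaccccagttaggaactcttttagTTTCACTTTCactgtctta
H2-T23: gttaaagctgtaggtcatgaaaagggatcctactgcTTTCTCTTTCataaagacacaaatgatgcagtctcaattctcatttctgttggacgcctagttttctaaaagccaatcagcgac

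Across all pericytes 429 of 6722 genes (6.38%) passed between EAE and adult mice, 258 higher (3.84%) and 171 lower (2.54%). In core pericytes 105 of 3484 (3.01%) passed, 63 higher (1.81%) and 42 lower (1.21%), and 96 with near-identical libraries taken as 1 sample. The cell sets are nested, with 130 core cells among the 155 marker-rich ones of EAE, so passing in all 3 is not repeated support. Of the UMIs of all pericytes, cells under 1% marker RNA carried 78.8% in EAE 1 and 70.4% in EAE 2. In all 3 cell sets 52 passed, 32 higher and 20 lower, and 26 of these, 16 higher and 10 lower, also passed in each fit of all pericytes without 1 EAE or adult library in which they were tested (Cxcl9 was not tested without Adult 1). The count of all pericytes was 926 without Adult 1, 125 without EAE 1 and 135 without EAE 2.

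Of 14 MHC class I genes tested in core pericytes, 6 were higher and 1, the chaperone gene Calr, lower at −0.88 (median 0.91, against −0.0078 over all genes). The list gave 0.875% and 0.895% of core UMIs in EAE, 0.366% to 0.385% in adult and 0.475% to 0.477% in aged libraries. B2m was at 3648 and 3632 CPM in EAE against 952, 939 and 1004 CPM in adult core pericytes (1.81 ± 0.16, adjusted p = 1.76e-10). H2-D1 was at 2127 and 2008 against 654, 605 and 636 CPM (1.59 ± 0.17) and H2-K1 at 659.7 and 649.8 against 222, 209 and 139 CPM (1.60 ± 0.25). H2-T23, a non-classical class I gene, was at 175 and 255 against 46.5, 46.5 and 9.94 CPM (2.32 ± 0.48, adjusted p = 0.00202). Psmb8 was at 188 and 278 against 46.5, 31.0 and 29.8 CPM (2.43 ± 0.43), and Psmb9 at 108 and 81.2 against 5.47, 7.76 and 0 CPM (3.91 ± 0.93, adjusted p = 0.00943, and 0.061 in all pericytes with 1 library left out). The EAE and adult libraries did not overlap for any of these 6 genes.

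Other cells of the EAE libraries had more of this RNA, with B2m at 7622 and 7684 CPM, H2-D1 at 3809.8 and 3816 CPM and Psmb8 at 569 and 593 CPM, and their part in the pericyte values as free RNA was not tested. ECs also rose in B2m, H2-K1 and H2-D1 (log2 differences 1.70, 2.05 and 1.60), and the change in core pericytes differed from theirs by 0.08, −0.53 and −0.06 in core pericytes (adjusted p = 0.98, 0.41 and 0.99).

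Of 24 interferon-response genes in core pericytes, 7 were higher and none lower (median 0.90), against 18 and 0 of 34 in all pericytes. Gbp2, an interferon-induced GTPase, was at 135 and 186 against 8.21, 0 and 9.94 CPM (4.33 ± 0.74, adjusted p = 0.000162). Ifit3, an antiviral gene induced by type I interferon, was at 175 and 162 against 8.21, 0 and 19.9 CPM (4.08 ± 0.71), and Irf7, a transcription factor that amplifies the response, at 162 and 92.8 against 8.21, 0 and 19.9 CPM (3.66 ± 0.79, adjusted p = 0.00328). For these 3 genes the change in core pericytes exceeded that in ECs by 2.48, 3.06 and 2.51 (adjusted p = 0.025, 0.00023 and 0.017). The EAE core sums held 74281 and 86175 UMIs, so that levels of this size rest on few UMIs. Ifitm3, a membrane protein that limits virus entry, was at 3568 and 4189 against 908, 1334 and 1282 CPM (1.65 ± 0.17), above the 2289 and 2464 CPM of other EAE cells. The GTPase genes Iigp1, at 80.8 and 197 against 7.76 to 19.9 CPM, and Irgm1, at 80.8 and 151 against 7.76 to 30.1 CPM, passed in the core. In all pericytes these GTPase genes did not pass in every fit that left out 1 EAE or adult library.

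Cxcl9, a chemokine that draws T cells through CXCR3, had no UMI in adult core pericytes and was at 121 and 104 CPM in EAE, at least 22.3-fold higher against a floor of 3 counts over the group (adjusted p = 0.00136). Other EAE cells had 48.0 and 54.7 CPM. ECs rose in Cxcl9 as well (log2 difference 5.94, adjusted p = 0.00013), and the difference between the cell types did not pass (adjusted p = 0.82 in core pericytes). Cxcl12 went the other way, at 175 and 232 CPM against 416, 504 and 517 (−1.30 ± 0.26, adjusted p = 0.00136), and the difference from ECs was −1.11 (adjusted p = 0.0065). Of the 22 cytokine, adhesion and acute-phase genes tested in the core, Il34 (1.01) and Cp (0.78) were higher and Cxcl12 was the 1 lower gene.

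Beyond these lists, Drap1, a transcriptional corepressor, was at 1090.5 and 754 CPM in EAE against 148, 155 and 159 CPM (2.47 ± 0.23, adjusted p = 3.76e-10). Other cells of the EAE libraries had 84.1 and 84.8 CPM and their adult counterparts 68.6 to 84.2, and the difference from the EC change was 2.14 (adjusted p = 9.4e-16). Angptl4, a secreted inhibitor of lipoprotein lipase, was at 242 and 174 against 19.1, 0 and 0 CPM (3.98 ± 0.64), and in ECs it rose as well (log2 difference 2.28).

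**Figure D5:**
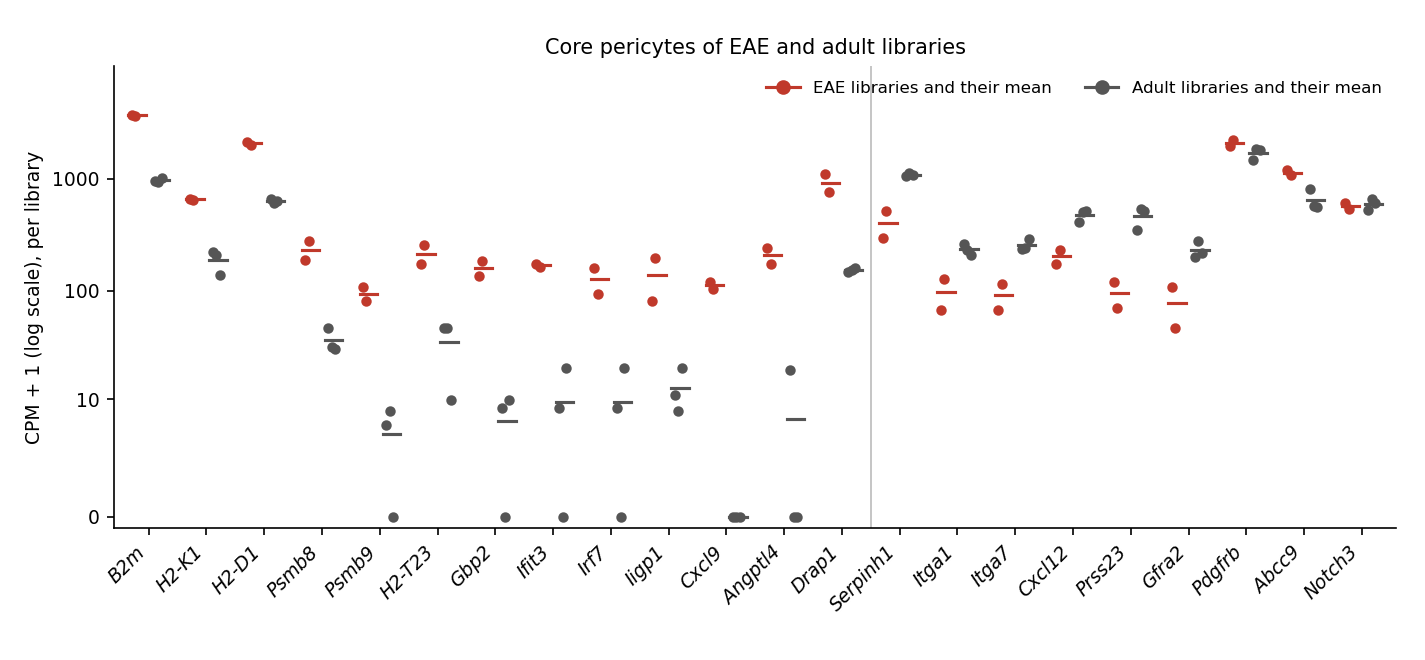
CPM plus 1, on a log axis, in core pericytes of the 2 EAE and 3 adult libraries, with dots for libraries and a bar for the group mean, for genes higher in EAE (left) and, on the right, genes lower in EAE followed by Pdgfrb, Abcc9 and Notch3, which did not pass. B2m lay at 3632 and 3648 CPM in EAE and 939 to 1004 CPM in adults.

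A few matrix and adhesion genes were lower in EAE. Of 37 matrix genes in core pericytes 3 were lower and none higher (median −0.57), against 16 lower and 1 higher, Timp2, of 51 in all pericytes, and matrix RNA gave 1.29% to 1.30% of core UMIs in EAE and 1.41% to 1.61% in adults. Serpinh1, the collagen chaperone HSP47, was at 296 and 511 against 1050.2, 1133 and 1074 CPM (−1.51 ± 0.22, adjusted p = 1.4e-05). Itga1, the α1 integrin chain that binds collagen, was at 67.3 and 128 against 263, 233 and 209 CPM (−1.39 ± 0.35), and in ECs its log2 difference was 0.58. Itga7 was at 67.3 and 116 against 235, 240.5 and 288 CPM (−1.53 ± 0.40, adjusted p = 0.022). In all pericytes Itga7 did not pass in every fit that left out 1 library. The protease gene Prss23, at 121 and 69.6 against 347, 535 and 517 CPM (−2.36 ± 0.32), and Gfra2, a receptor of the GDNF family, at 108 and 46.4 against 199.7, 279 and 219 CPM (−1.70 ± 0.37), were also lower. So was the nuclear RNA Malat1, at 86967 and 84526 CPM against 110260.0 to 117590.0 CPM (−0.52 ± 0.13, adjusted p = 0.0181).

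Some pericyte genes were lower in all EAE pericytes, and none of those tested passed as lower in the core. In all pericytes 5 of 20 pericyte genes outside the rule were lower, among them Anpep (−1.45 ± 0.38, adjusted p = 0.0294) and Cspg4 (−1.37 ± 0.35, adjusted p = 0.0261), and 17 were without Adult 1, while in core pericytes Zic1 was higher (1.08, adjusted p = 0.000922) and none was lower. Slc6a20a and P2ry14 were also among the 5. Pdgfrb was at 1966 and 2182 against 1455, 1846 and 1789 CPM in core pericytes (0.20 ± 0.17, adjusted p = 0.614), while in all pericytes its difference was −0.67 (adjusted p = 0.181) and, without Adult 1, −0.97 (adjusted p = 0.00033). In core pericytes Notch3 was at 606 and 534 against 531, 659 and 606 CPM (−0.16 ± 0.21, adjusted p = 0.772) and Abcc9 at 1185 and 1079 against 809.6, 566 and 557 CPM (0.66 ± 0.20, adjusted p = 0.0591). Cspg4, at 229 and 313 against 380.2, 380.1 and 477 CPM, did not pass in the core (adjusted p = 0.16). Of the ion channel genes 9 of 35 were lower in all pericytes and 1 of 22, Itpr1 at −1.17, in the core.

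The largest rises of all EAE pericytes, by contrast, were those of genes that could not be tested in the core. Chi3l3, Lcn2, C4b, Il1r2, Cd300lf, Gpx3, Ms4a4c and Fcgr4 were at 0 to 80.8 CPM in the 2 EAE core sums and none was abundant enough there to be tested. In the core Lcn2 had 11 UMIs in EAE and 0 in adults, at least 13.6-fold higher against a floor of 3 counts over the group. Chi3l3 had 4 and 0 UMIs, at least 4.95-fold higher. The source of the RNA of these genes was not tested. Leukocyte markers gave 0.763% and 0.878% of the UMIs of all EAE pericytes, 0.0975% and 0.121% in the core, and 1.74% and 1.76% in other EAE cells. S100a8, a neutrophil gene, was at 108 and 139 CPM in EAE core pericytes against 13.7, 15.5 and 19.9 CPM (2.84 ± 0.61) and at 1413 to 1788 CPM in other EAE cells. Cd74 (2.94) and Ccl5 (3.33), also leukocyte genes, were higher too, so that 3 of the 5 leukocyte genes tested in the core rose. Of the 8 genes with the largest fall, Prss23 and Tspan15 also passed in the core, while Pgk1, Ost4, Gstp1, Gm11636, Gm1821 and Ehd2 did not pass or could not be tested there, and several of these share sequence with gene copies.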

How the data were processed

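RNA of mouse cortex cells was measured in 11 libraries. The authors deposited counts, 1 whole-number UMI table per library, with 26921 genes over all 11 tables together. The submitters' processing notes name bcl2fastq 2.19.1.403, UMI-tools 0.5.3, STAR 2.5.3a, featureCounts 1.6.1 and the build mm10. Total UMIs of a library ran from 15755504 to 34326349.

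The members and gene lists were chosen with earlier results of these data known. Pericyte UMIs were summed per library and tested with edgeR 4.0.16 (R 4.3.3, TMM, filterByExpr, robust quasi-likelihood) over all 11 libraries, with contrasts of each group against adults, and on pericyte and EC sums together for the difference from ECs. An adjusted p (Benjamini-Hochberg) under 0.05 was a call. ECs had at least 4 UMIs of Cldn5 and Flt1, SMCs at least 10 of Acta2, Tagln and Myh11, and a sum needed 10 cells. Pericytes against other cells and SMCs were compared with the library as a block. Shares were compared with exact permutation tests. The tests were checked on simulated counts. DESeq2 1.42.0 was an alternative. Python 3.11.15 and scanpy 1.11.5 were used for cells. Intervals and floors cover counting error only.

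Named genes were the 8 with the largest log2 change in each direction among called genes whose higher group averaged 50 CPM or more, with libraries that did not overlap and at least 0.25 times the level of other cells, leaving out the rule's genes, other cells' markers, sex-linked, mitochondrial and ribosomal protein genes. Up to 3 called genes per list and direction with at least 20 CPM, the 5 genes Pdgfrb, Cspg4, Anpep, Abcc9 and Notch3, and within libraries the 10 largest differences at 200 CPM or more were added. After the data were seen, the 10 largest changes and up to 6 per list and direction were added from genes called in all 3 cell sets and in each fit of all pericytes without 1 library of either group in which they were tested, with 50 CPM or more in core pericytes. A further few, such as Igf2, Cxcl12, Igfbp2, Col1a1, Dcn, S100a8, Malat1, Tbx18 and those that fill a count of 5 or fewer, were chosen after their values were seen. Some genes that the rules name are not reported here. The promoters were read from RefSeq tables of GRCm38.p6.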

Additional observations from a re-analysis of the deposited data

Results flagged for a closer look

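In the juvenile group, where 4 libraries allow the check, 2 of 56 values of pericytes had 1 library far from the other 3 (Dixon's ratio above its 95% critical value), and chance gives about 1 in 20. Hspb1, a small heat shock protein, was at 334.47 CPM in Juvenile 4 against 149 to 158 CPM in the other libraries, and Pde4c at 46.8 CPM in Juvenile 3 against 4.17 to 8.16 CPM. Both were below every adult library.

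For 30 of 71 named changes, the change from adult differed between pericytes and ECs of the same libraries, both in all and in core pericytes (interaction term, edgeR, adjusted p under 0.05). These genes were named for large changes in pericytes, which favours such a difference, and of all genes 8.67% differed in juvenile and 8.4% in EAE mice with all pericytes, and 7.96% and 1.5% with core pericytes. Near-identical libraries were counted separately in this test. Values below are the log2 change in all pericytes minus that in ECs. In juvenile mice pericytes exceeded ECs for Lgals1 (4.65), Fabp5 (4.57), Mdk (3.95), Postn (3.59), Col18a1 (1.89), Vim (1.70), Serpine2 (1.60), Pde5a (1.37), Tpm4 (1.27), Nrep (0.98), B2m (0.70), Tmsb10 (0.54) and Myl12a (0.54). Pericytes were below ECs for Col4a3 (−3.86), Pde4d (−3.29), Schip1 (−3.17), Ggt1 (−2.16), Cebpd (−1.32), Lamb2 (−0.97), Itpr1 (−0.84) and H2-D1 (−0.64). For B2m, which fell in both, the log2 difference in ECs was −1.34.

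In EAE pericytes exceeded ECs for Gbp2 (1.75), Ifit3 (1.71), Irf7 (1.66) and Drap1 (1.15). They were below ECs for Prss23 (−3.08), Itga1 (−2.59), Cxcl12 (−1.95), Malat1 (−1.36) and Serpinh1 (−1.15).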

How the results depend on the processing

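Counts of called genes were 1643 for juvenile, 66 for aged and 429 for EAE against adult pericytes. RLE normalization and the removal of Scrublet doublets kept each within 1.5 times. Where Rgs5 was left out of the rule, the needed sum of the other markers was also lowered to 2 UMIs. Juvenile counts were 982 with DESeq2, 943 with Cldn5 and Flt1 at 0, 1002 with near-identical and aged libraries summed, 1070 in core pericytes with near-identical libraries summed and 916 in marker-rich pericytes without Adult 1. EAE counts were 235 with DESeq2, 266 with Cldn5 and Flt1 at 0, 787 with no filter on low counts, 1539 without Rgs5 in the rule, 199 with the libraries of both conditions alone, 225 with near-identical libraries summed and 94 with the aged ones summed too. They were 142 in marker-rich pericytes (116 with near-identical libraries summed), and 105 in core pericytes (96 likewise). Aged counts were 279 with no filter, 41 without Rgs5, 5 at a marker sum of 10, 5 with both conditions alone, 11 with near-identical libraries summed, 14 in marker-rich (4 summed) and 12 in core pericytes (1 summed). They were 0 with edgeR at Cldn5 and Flt1 of 0 (324 at an unadjusted p under 0.05) and 0 with aged libraries summed (778), against 59 with DESeq2 on the main table. Pericytes against SMCs gave 2468 genes with no filter. Changes that differed from ECs numbered 23 in aged and 501 in EAE with Cldn5 and Flt1 at 0, 74 and 226 in marker-rich, and 44 and 211 in core pericytes.

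With 1 library left out, counts ranged from 916 to 1633 (juvenile), 0 to 152 (aged) and 40 to 926 (EAE), the ends at 916 and 40 being those of marker-rich pericytes. Against other cells they ranged from 4035 to 4405 and against SMCs from 838 to 1037. Differences from ECs ranged from 991 to 1262 in juvenile, 22 to 171 in aged and 671 to 1221 in EAE. The difference in the share of kept cells ranged from −2.83 to 0.657 points in juvenile, −3.20 to 0.291 in aged and −4.32 to −0.834 in EAE, that of pericytes and ECs from −1.53 to 7.30, −8.39 to 0.439 and −9.44 to −0.62, and the cycling difference from 1.15 to 2.60. With all libraries, the differences in the share of kept cells were −4.60, −4.98 and −6.01 without Rgs5, in the same order of groups. With Cldn5 and Flt1 at 0 they were −0.171, −0.0284 and −0.789. The juvenile difference in the share of kept cells was 0.482 points with cells thinned before the rule. That in the share of pericytes and ECs was −1.89 without Rgs5 and −1.32 with near-identical libraries averaged. The cycling difference was 3.48 without Rgs5 (exact permutation test, p = 0.0286, the smallest possible).

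Some single genes changed sign, and the cause was not tested. In juvenile mice without Rgs5, Abcc9 was 0.18 (−0.51, adjusted p = 0.0239, with it) and Anpep 0.50, and Anpep ranged from −0.78 (without Adult 1, adjusted p = 0.013) to 0.013 (without Adult 3). In core pericytes, singly and with near-identical libraries summed, Igfbp2 was −1.66 and −1.66, Cxcl12 −2.36 and −2.29, and Dcn, itself in the fibroblast limit, −3.07 and −3.04. In aged mice, in the order core, core with near-identical libraries summed, marker-rich, marker-rich with libraries summed and marker-rich with the replicate block, Pdgfrb was −0.21, −0.16, −0.21, −0.17 and −0.16 and Notch3 −0.20, −0.17, −0.15, −0.13 and −0.21. With Cldn5 and Flt1 at 0, at a marker sum of 10 and without Adult 1, Pdgfrb was −0.26, −0.18 and −0.0896 and Notch3 −0.092, −0.19 and −0.036. Anpep was −0.043 in core, −0.041 in marker-rich, −0.0050 in blocked marker-rich pericytes, −0.0064 at a marker sum of 10 and −0.089 without Adult 1. With 1 library left out, Pdgfrb reached 0.43, Notch3 0.54 and Anpep 0.69. In EAE, Pdgfrb was −0.67 in all pericytes and −0.97 without Adult 1 (adjusted p = 0.181 and 0.00033). In the same order of 5 it was 0.20, 0.24, 0.18, 0.23 and 0.23 and Abcc9 0.66, 0.60, 0.59, 0.53 and 0.57. Abcc9 was 0.0084 with Cldn5 and Flt1 at 0, 0.32 at a marker sum of 10, 0.026 without Adult 2, 0.018 without EAE 1, −0.11 without Adult 1 and 0.0050 with the replicate block.

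The labels give the replicate numbers no shared origin, and not every juvenile pair correlated above 0.1. Deviations from the group means correlated by −0.061 to 0.204 between juvenile and adult libraries of the same number and by −0.224 to 0.202 between those of different number, by 0.052 to 0.075 (same) and −0.0753 to 0.043 (different) for aged, and by 0.172 to 0.239 and −0.239 to 0.13 for EAE, each with 2 pairs. With the replicate number as a block the counts were 1547, 141 and 503 in all and 1432, 33 and 170 in marker-rich pericytes. With 2 libraries in the aged and EAE groups, and 130 core pericytes in EAE, a difference that did not pass is not shown to be absent.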

Other observations

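Among barcodes left out by the limits on genes and mitochondrial UMIs, 5 of 561 juvenile, 90 of 1254 adult, 44 of 1816 aged and 12 of 390 EAE barcodes met the marker part of the rule (0.891%, 7.18%, 2.42% and 3.08%). Most of the adult and aged ones, 87 and 43, had 500 genes or fewer.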
